A study of Mus musculus with 4 samples.

Results

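Immunoglobulin genes and the genes that direct plasma cells were compared between spleens of mice with and without the transcription factor Nrf2. The set holds every non-control probe set whose platform symbol starts with Igh, Igk or Igl, except Ighmbp2, together with those of Jchain, Prdm1, Irf4 and Sdc1. The rule also named Mzb1, for which the platform annotation used here lists 0 probe sets. This gave 84 of 12422 probe sets, a probe set being the group of short oligonucleotides that reads 1 transcript or transcript family. They were 27 with a heavy-chain constant symbol, 9 heavy variable, 27 kappa, 3 lambda, 5 of regulators and Jchain, and 13 with several symbols, which are kept as unresolved family signals.

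Total RNA came from spleens of female mice aged 5 months, an age the labels place before autoimmune disease becomes severe. The knockout group, nrf2 -/-, and the wild-type group, nrf2 +/+, had 2 arrays each and were littermates from interbred heterozygotes. Those heterozygotes came from nrf2 +/+ mice of C57B6/SJL background and nrf2 -/- mice of C57B6/129SVJ background, so both groups carry a mixture of strains. All mice were on the same diet, and no treatment is given for either group. The deleted part of the gene is not described in the labels, nor is it said whether the RNA on each array was from 1 mouse or pooled. The p-values therefore reflect the spread between these 4 samples alone, and that spread may be technical.

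An antibody is built from heavy and light chains, each joining a variable part, which binds antigen, to a constant part, which for the heavy chain sets the class (IgM, IgD, IgG, IgA or IgE). B cells assemble a variable part by joining gene segments, so each B cell clone uses its own segments, and in mice most light chains are kappa and few are lambda. When a B cell becomes a plasma cell, Irf4 and Prdm1 (Blimp-1) drive the change, immunoglobulin transcripts rise greatly, the J chain that joins IgM and IgA units is made, and the surface proteoglycan Sdc1 (CD138) appears. The spleen holds both resting B cells and plasma cells. In RNA from whole tissue, fewer cells of a type and less RNA per cell cannot be told apart.

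The targeted gene separated the genotypes. Intensity of Nfe2l2, the gene of Nrf2, was 202 and 178.6 on knockout arrays 1 and 2 and 3537 and 6321 on wild-type arrays 1 and 2 (log2 difference -4.61, SE 0.47, limma adjusted p = 0.0199). Wild-type replicate 1 stood apart from the other arrays over all tested probe sets, with Pearson's r from 0.849 to 0.851 against them, while the other pairs had r from 0.938 to 0.947. A ratio of 3' to 5' signal near 1 is read as intact RNA, and a higher ratio as less intact RNA. For the Gapdh control the ratio of wild-type replicate 1 was 88.3, against 8.07 to 34.8 on the other arrays. For the beta-actin control its ratio was 14.4, within the range of the other arrays, 8.86 to 19.3. Both ratios lay well above 1 on every array, so intact RNA was not shown for any of them. Where leaving out 1 array turns a direction or moves a value strongly, the value without that array is given for the genes described most closely.

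No immunoglobulin or plasma cell probe set passed the test between the genotypes. Of the 84, 66 were bright enough to test, and 0 had an adjusted p under 0.05 (limma, Benjamini-Hochberg over 7453 probe sets), where 0.0537% of all tested probe sets did. The smallest adjusted p among them was 0.764. An unadjusted p under 0.05 was reached by 2 of the 66, both lower in knockout spleen, against 1.74% of all tested probe sets (0.778% higher and 0.966% lower). The genotypes did not overlap for 2 members that were higher and 14 that were lower in knockout spleen, which is 3.03% and 21.2% of the 66, against 14.3% and 12.2% of all tested probe sets.

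On balance the members measured lower in knockout spleen, but over all 66 tested members this direction rested on 1 array. In the fit of all 4 arrays 23 of 66 measured higher and 43 lower, with a median log2 difference of -0.30, beside 0.04 over all tested probe sets. When knockout replicate 2 was left out, 36 measured higher and 30 lower, with a median of 0.07. When knockout replicate 1 was left out, 9 measured higher and 57 lower, with a median of -0.62. Leaving out wild-type replicate 1 or 2 gave medians of -0.35 and -0.23. Of the 66, 35 lacked the f mark, which in the array maker's naming stands for probes shared by a sequence family. Their median stayed below 0 with any 1 array left out, from -0.39 to -0.16. Without knockout replicate 2, 13 of these 35 measured higher and 22 lower. The heavy-chain, kappa and several-symbol groups had medians from -0.35 to -0.29. The lambda group had -0.50, but both its tested probe sets read Igll1, part of the surrogate light chain of pre-B cells. The regulators and Jchain had a median of 0.56, which ranged from 0.10 to 1.03 with 1 array left out.

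**Figure D1:**
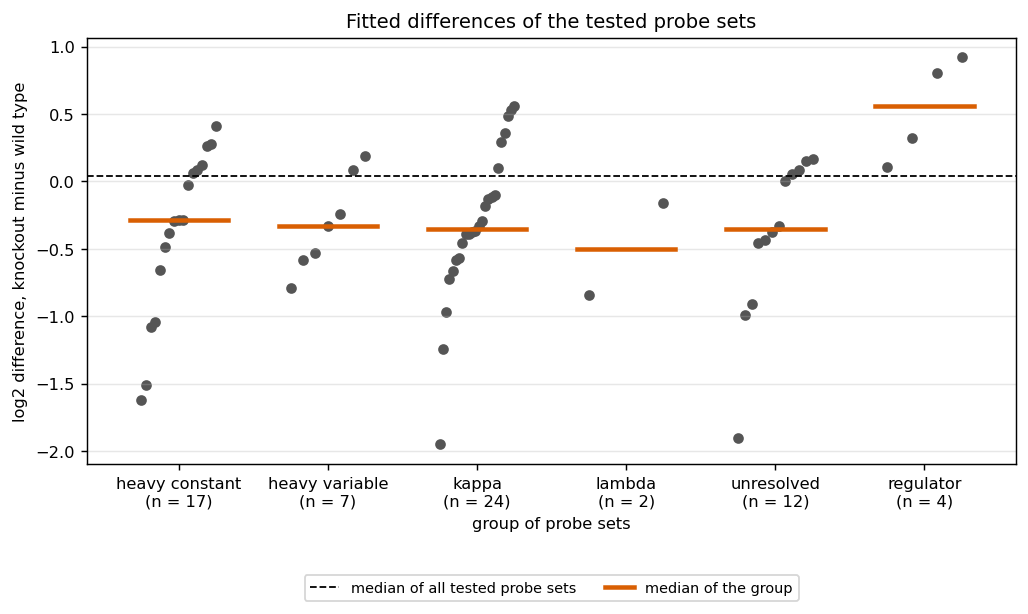
Log2 difference between knockout and wild-type spleen (vertical axis) for each tested probe set (grey points, sorted within a group) in the 6 groups, with the group median as an orange bar and the median of all tested probe sets, 0.04, as a dashed line. The regulators and Jchain lie above the line, the lambda points, both of Igll1, below it, and every other group lies on both sides.

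Jchain, whose product links the units of secreted IgM and IgA, was the regulator-group member whose genotypes did not overlap. It read 59849 and 57722 in knockout spleen and 21863 and 51990 in wild-type spleen. The knockout arrays lay close together and wild-type replicate 1 lay far below the other 3. The log2 difference was 0.80 (SE 0.52, 95% confidence interval -0.41 to 2.01, adjusted p = 0.992). When wild-type replicate 1 was left out it was 0.18, and when wild-type replicate 2 was left out it was 1.43.

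Prdm1, the repressor that shuts down the B cell programme in plasma cells, read 1616 and 576.7 in knockout spleen and 353.2 and 737.3 in wild-type spleen. Knockout replicate 1 was the high array, and the genotypes overlapped. Its log2 difference was 0.92 (SE 0.64, 95% confidence interval -0.57 to 2.41, adjusted p = 0.992), with 0.18 when knockout replicate 1 and 0.39 when wild-type replicate 1 was left out. Irf4, which acts upstream of Prdm1, read 6889 and 4514 against 3593 and 5544, with a log2 difference of 0.32 (SE 0.44, adjusted p = 0.992). Leaving out wild-type replicate 1 gave 0.01, and leaving out knockout replicate 1 gave 0.02. In both transcription factors knockout replicate 1 read highest and wild-type replicate 1 lowest.

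Sdc1, the plasma cell surface marker CD138, was read by 2 probe sets. The tested one gave 789.1 and 563.9 in knockout spleen and 944.4 and 408.1 in wild-type spleen, so the wild-type arrays held the highest and the lowest value. Its log2 difference was 0.10 (SE 0.57, adjusted p = 0.997), with 0.71 and -0.50 when wild-type replicate 1 or 2 was left out. The other, too dim to test, gave 379.5 and 260.5 against 338.3 and 88. No direction for Sdc1 could be read from either.

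Promoter sequences were in the RefSeq table (build GRCm38.p6) for 5 members: Jchain, Prdm1, Irf4, Sdc1 and Igll1. Nrf2 binds antioxidant response elements, so the 250 bases before each gene's start were searched on both strands for their core, TGACNNNGC, which 10.2% of 32851 promoter windows of that length in the table hold. The octamer ATGCAAAT, the element typical of immunoglobulin variable promoters, was searched likewise and is in 1.6% of the windows. The Jchain window held the core once, starting 156 bases before the gene's start, and the other 4 windows held neither motif. Jchain and Prdm1, which had the largest differences above 0 among these 5 members, are shown, with the core in capitals. A match describes these letters and does not show binding. The Jchain window is chr5:88527898-88528147 and the Prdm1 window chr10:44458749-44458998, both on the minus strand and written 5′ to 3′.
Jchain: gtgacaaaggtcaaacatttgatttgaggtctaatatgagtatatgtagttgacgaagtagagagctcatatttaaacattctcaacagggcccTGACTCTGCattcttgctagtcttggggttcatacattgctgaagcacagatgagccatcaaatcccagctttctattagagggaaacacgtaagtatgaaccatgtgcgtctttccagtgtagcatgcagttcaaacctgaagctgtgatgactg
Prdm1: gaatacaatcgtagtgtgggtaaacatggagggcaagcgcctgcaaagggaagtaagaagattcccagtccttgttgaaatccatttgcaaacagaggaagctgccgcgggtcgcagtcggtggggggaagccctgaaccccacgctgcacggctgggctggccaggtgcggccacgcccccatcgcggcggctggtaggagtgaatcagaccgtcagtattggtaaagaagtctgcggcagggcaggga

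The heavy-chain constant symbols covered IgM (Ighm, 16 probe sets), IgG3 (Ighg3, 7), IgA (Igha, 3) and IgD (Ighd, 1). The symbol does not always tell which part of the chain is read: the same sequence record stands behind 1 Igha probe set and 2 Ighv14-2 probe sets. Values are given by symbol, and the part of the chain that each probe set reads was not checked. They are therefore not shown to be levels of an antibody class. Of the 27, 17 were tested, 6 lay above 0 and 11 below it as knockout minus wild type, and the median log2 difference was -0.29. That median had no stable sign. It was -1.39 and 0.47 when wild-type replicate 1 or 2 was left out, and 0.07 without knockout replicate 2. It was 0.19 without probe sets whose name carries any letter mark, such as f, and 0.08 with only the brightest 40% of probe sets. The genotypes did not overlap for 1 higher and 1 lower probe set, which is 11.8% of the 17, against 26.4% of all tested probe sets.

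Probe sets with the symbol of IgM, the class of naive B cells and early plasma cells, gave differing answers. Of the 9 tested, 3 measured higher and 6 lower in knockout spleen, with a median log2 difference of -0.29. That median was -1.44 and 0.80 when wild-type replicate 1 or 2 was left out. Probe set 93583_s_at read 160236 and 179228 in knockout spleen and 313353 and 136730 in wild-type spleen, so wild-type replicate 1 was far above the other 3. Its log2 difference was -0.29 (SE 0.54, adjusted p = 0.992), and 0.31 without wild-type replicate 1. Probe set 93584_at read 74777 and 73662 against 53427 and 71581, with wild-type replicate 1 now the lowest array. Its genotypes did not overlap, and its log2 difference was 0.26 (SE 0.44, adjusted p = 0.992), and 0.05 without that array.

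Other Ighm probe sets varied more between arrays of 1 genotype. Probe set 101870_at read 2182 and 26058 in knockout spleen and 11835 and 20395 in wild-type spleen, a gap of -3.58 on the log2 scale between the knockout arrays. Probe set 99420_at read 20755 and 10075 against 3993 and 35746, a gap of -3.16 between the wild-type arrays. Their log2 differences between genotypes were -1.04 (SE 1.003) and 0.28 (SE 0.93). The former turned to 0.75 without knockout replicate 1, and the latter to -1.31 without wild-type replicate 1. The other 5 tested Ighm probe sets carry the f mark. In 100362_f_at, 100377_f_at, 101745_f_at, 101871_f_at and 97577_f_at the log2 differences were 0.07, -0.49, -0.28, -0.38 and -1.08 (adjusted p from 0.992 to 0.997). Their median was -1.77 and 0.82 when wild-type replicate 1 or 2 was left out. Of the 16, 7 were too dim to test, and 3 lay below the floor of 185 on all 4 arrays.

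Igha is the symbol of the class made mostly for mucosal surfaces. Its probe set 100583_at read 167451 and 158985 in knockout spleen and 306724 and 130877 in wild-type spleen. This is the probe set that shares its sequence record with Ighv14-2 probe sets, so it is not shown to read the IgA constant part. As for the first Ighm probe set, wild-type replicate 1 was the high array and the other 3 lay close together. The log2 difference was -0.30 (SE 0.55, 95% confidence interval -1.56 to 0.97, adjusted p = 0.992), and 0.32 without wild-type replicate 1. The other tested Igha probe set differed by -0.03 (SE 0.46, adjusted p = 0.997), and the third, read at 36.5 to 49.6 on 3 arrays and 508.9 in wild-type replicate 2, was not tested. Ighd, the class co-expressed with IgM on naive B cells, read 4871 and 5224 against 5729 and 3761, a log2 difference of 0.12 (SE 0.41, adjusted p = 0.993).

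Ighg3, a class that mice make chiefly against T-independent antigens, had 2 bright probe sets built on 1 sequence record. Probe set 102721_at read 58637 and 51726 in knockout spleen and 21872 and 78541 in wild-type spleen. Probe set 102722_g_at read 33313 and 27290 against 14010 and 57815. In both the knockout arrays lay between the wild-type arrays, which differed by 3.59-fold and 4.13-fold, wild-type replicate 2 being higher. The log2 differences were 0.41 (SE 0.63, adjusted p = 0.992) and 0.08 (SE 0.66, adjusted p = 0.997), and they turned to -0.51 and -0.94 without wild-type replicate 1. Probe set 102723_at, too dim to test, read 771.8 and 484.6 in knockout spleen and 148.1 and 350.8 in wild-type spleen. The other untested one, 101752_f_at, read 355.9 and 137.4 against 191.7 and 916.1.

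The remaining tested Ighg3 probe sets carry the f mark, which in the array maker's naming stands for probes shared by a sequence family. Probe set 93927_f_at read 835.9 and 394 in knockout spleen and 851 and 3653 in wild-type spleen. It was the largest difference of the constant group, -1.62 (SE 0.73, 95% confidence interval -3.30 to 0.06, adjusted p = 0.992), although knockout replicate 1 and wild-type replicate 1 were almost equal. The other 2, 97008_f_at and 97574_f_at, differed by -1.51 and -0.65 (adjusted p = 0.992 for both). Leaving out wild-type replicate 1 gave -2.68 and -2.28, and leaving out wild-type replicate 2 gave -0.34 and 0.97, so the latter turned. For 93927_f_at the same values were -2.67 and -0.57. The 8 tested Ighm and Ighg3 probe sets with this mark shared a pattern over the arrays, with the highest value in wild-type replicate 2 in all 8. There wild-type replicate 2 exceeded wild-type replicate 1 by 2.65-fold to 9.67-fold, and knockout replicate 1 exceeded knockout replicate 2 by 1.35-fold to 3.59-fold. Since such probe sets read related sequences, they are not independent measurements.

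**Figure D2:**
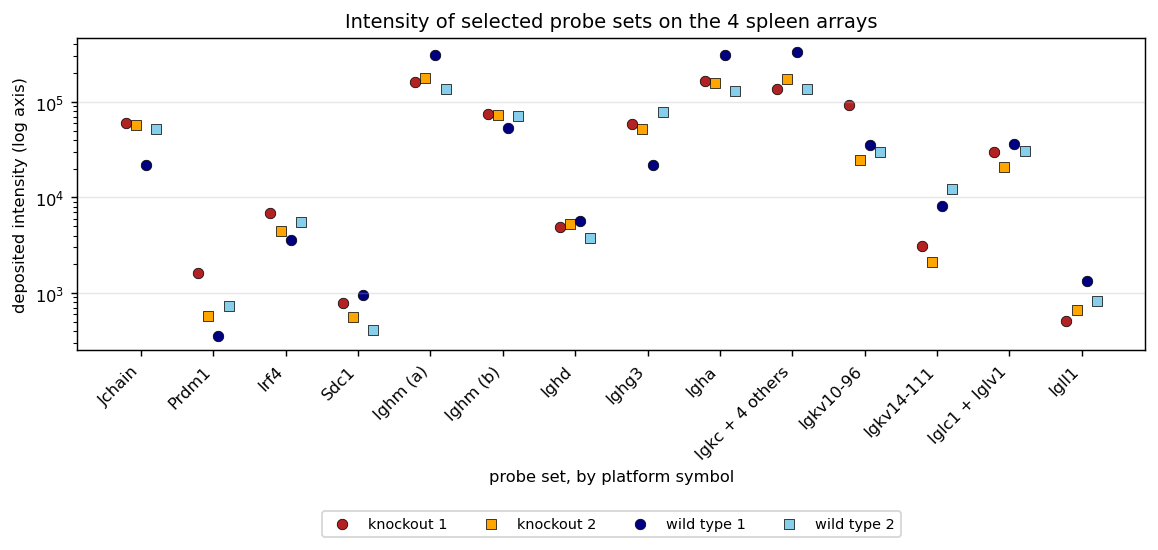
Deposited intensity (vertical log axis) of 14 probe sets on each array, knockout in red and orange, wild type in dark and light blue; Ighm (a) is 93583_s_at and Ighm (b) 93584_at, and "Igkc + 4 others" is the probe set with 5 kappa symbols. Wild-type replicate 1 is the highest array for Ighm (a), Igha and the Igkc probe set and the lowest for Jchain, Ighm (b) and Ighg3, and both knockout arrays lie below both wild-type arrays for Igkv14-111.

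Heavy variable segments, which form the antigen-binding end of the heavy chain, had 9 probe sets, of which 7 were tested. Of these, 2 measured higher and 5 lower in knockout spleen, with a median log2 difference of -0.33, and -0.86 and 0.51 without wild-type replicates 1 and 2. The genotypes did not overlap for 2 of the 7 (28.6%), both lower. Over all tested probe sets, 12.2% were separate and lower and 26.4% were separate in either direction. Wild-type replicate 2 read above wild-type replicate 1 in all 7.

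Ighv14-2 was read by 3 probe sets, all lower in the mean. The one with separate genotypes, 92741_g_at, read 1091 and 862.6 in knockout spleen and 1231 and 2279 in wild-type spleen (log2 difference -0.79, SE 0.46, adjusted p = 0.992). The others differed by -0.24 and -0.33, with the genotypes overlapping, and turned to 0.21 and 0.07 without knockout replicate 2. Ighv5-12 read 3382 and 2739 against 3513 and 5528, a log2 difference of -0.53 (SE 0.42, adjusted p = 0.992) with knockout replicate 1 just below wild-type replicate 1. Ighv1-54, at 3427 and 1047 against 1236 and 6543, differed by -0.59 (SE 0.83, adjusted p = 0.992), and both genotypes spanned a wide range, so that it was -1.79 and 0.62 when wild-type replicate 1 or 2 was left out. The other 2 tested probe sets differed by 0.19 and 0.08.

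Kappa chains, the main light chains of mice, had 27 probe sets with 1 symbol, all of variable segments or of the locus as a whole, and 24 were tested. Of these, 6 measured higher and 18 lower in knockout spleen, with a median log2 difference of -0.35. Without knockout replicate 2 the count was 13 higher and 11 lower, with a median of 0.07, and without knockout replicate 1 it was 1 higher and 23 lower, with a median of -0.74. Knockout replicate 2 read lowest of the 4 arrays in 20 of the 24, where it was lowest in 20.8% of all tested probe sets. The genotypes did not overlap for 0 higher and 4 lower probe sets. That is 16.7% of the 24, where 12.2% of all tested probe sets were separate and lower and 26.4% were separate in either direction.

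The kappa segment with the smallest p was Igkv14-111. Its probe set 96974_at read 3090 and 2127 in knockout spleen and 8075 and 12134 in wild-type spleen, so both knockout arrays lay well below both wild-type arrays. The log2 difference was -1.95 (SE 0.43, 95% confidence interval -2.95 to -0.95, unadjusted p = 0.00205, adjusted p = 0.764), and it ranged from -2.24 to -1.66 with 1 array left out. A fit with the replicate number as a block, which is no pairing in the labels, gave an adjusted p of 0.0202. The same symbol had 2 other probe sets, both from 1 other sequence record. Of these, 100683_r_at read 1220 and 1391 against 1596 and 1602 (log2 difference -0.30, SE 0.39), and 100682_f_at read 7624 and 1400 against 1711 and 10735 (log2 difference -0.39, SE 0.98, with -1.72 and 0.93 when wild-type replicate 1 or 2 was left out). The latter put 1 array of each genotype high and 1 low, so the 3 probe sets did not share a pattern.

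Igkv1-133 read 25646 and 12800 in knockout spleen and 33581 and 37361 in wild-type spleen, a log2 difference of -0.97 (SE 0.48, adjusted p = 0.992) with separate genotypes. Igkv9-120, at 2786 and 1208 against 2398 and 7861, differed by -1.24 (SE 0.65, adjusted p = 0.992) with overlap, and by -0.39 without wild-type replicate 2. Igkv8-30 differed by -0.72 (SE 0.49) on probe set 96963_s_at. Igkv6-23 read 175031 and 194566 against 384124 and 140954, with wild-type replicate 1 far above the rest, and differed by -0.33 (SE 0.58, adjusted p = 0.992). Igkv6-14 on probe set 101331_f_at read 82585 and 52070 against 86310 and 57234 and differed by -0.10 (SE 0.48).

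Igkv10-96, named here after its values were seen, stood out for 1 array. Its 3 probe sets read 68209, 91906 and 44251 in knockout replicate 1 and 12369, 24975 and 8864 in knockout replicate 2. In wild-type spleen they read 19282, 35334 and 13067 in replicate 1 and 22319, 30018 and 14385 in replicate 2. Knockout replicate 1 exceeded knockout replicate 2 by 3.68-fold to 5.51-fold, while the wild-type arrays differed by 1.18-fold at most. The log2 differences between genotypes, 0.49, 0.56 and 0.53, were the 3 largest of the kappa group above 0, and none passed (adjusted p = 0.992 for each). Without knockout replicate 1 they turned to -0.75, -0.38 and -0.63. All 3 probe sets carry the f mark.

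The Igkv4 segments formed another set with a common pattern. In the 4 probe sets with 1 Igkv4 symbol and the 4 whose symbols are Igkv4 segments and Igkc, the kappa constant gene, knockout replicate 1 was the highest array in 7 of 8. It exceeded knockout replicate 2 by 1.33-fold to 2.29-fold, and wild-type replicate 2 exceeded wild-type replicate 1 by 1.20-fold to 1.66-fold. Igkv4-91, for example, read 80559 and 46540 in knockout spleen and 37079 and 61531 in wild-type spleen (log2 difference 0.36, SE 0.50), and Igkv4-70 read 73001 and 36288 against 40249 and 57413 (0.10, SE 0.51). The 8 differences between genotypes lay between -0.13 and 0.36, with adjusted p from 0.992 to 0.997. All of the 8 except 102076_at carry the f mark, so they are not independent measurements. The directions were not particular to Igkv4. Knockout replicate 1 read above knockout replicate 2 in 57 of the 66 tested members, and wild-type replicate 2 above wild-type replicate 1 in 45. The Igkc probe set 93086_at, which lists an Igkv4 segment among segments of other families, did not share this pattern and is described with the unresolved signals.

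Lambda chains, the minor light chains of mice, were measured by few probe sets. Iglc1, a lambda constant gene, had 1 probe set of its own, which was too dim to test and read 443.4 and 53.1 in knockout spleen and 462.7 and 396.5 in wild-type spleen. The probe set shared by Iglc1 and the variable segment Iglv1 was bright, at 29812 and 20931 against 36722 and 30996. Its genotypes did not overlap by a narrow margin, knockout replicate 1 lying just below wild-type replicate 2, and the log2 difference was -0.43 (SE 0.43, 95% confidence interval -1.44 to 0.57, adjusted p = 0.992).

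Igll1 matches the rule by name but encodes lambda 5, part of the surrogate light chain that pre-B cells use before they have a light chain. Its 2 probe sets were the only tested ones with a single lambda symbol. Probe set 99429_at read 509.6 and 664.3 in knockout spleen and 1328 and 816.1 in wild-type spleen (log2 difference -0.84, SE 0.48, adjusted p = 0.992). Probe set 99428_at read 528.5 and 523.7 against 623.6 and 556.6 (log2 difference -0.16, SE 0.48, adjusted p = 0.992). Both knockout arrays lay below both wild-type arrays in each. Over all tested probe sets, 12.2% were separate and lower and 26.4% were separate in either direction.

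Among the 13 probe sets with several symbols, 12 were tested, 5 lay above 0 and 7 below it as knockout minus wild type, and the median log2 difference was -0.35. The genotypes did not overlap for 5 of the tested ones (41.7%), all lower. Over all tested probe sets, 12.2% were separate and lower and 26.4% were separate in either direction. The probe set assigned to Igkv16-104 and the Igk locus read 7791 and 3764 in knockout spleen and 23569 and 17343 in wild-type spleen. It was the second member with an unadjusted p under 0.05 (log2 difference -1.90, SE 0.49, 95% confidence interval -3.02 to -0.78, unadjusted p = 0.00459, adjusted p = 0.992), and a fit with the replicate number as a block gave an adjusted p of 0.0459. The probe sets of Igk with Asb2, a gene outside the immunoglobulins, and of Igk with Igkv1-117 were also lower on both knockout arrays, by -0.99 (SE 0.50) and -0.91 (SE 0.44) on the log2 scale.

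The kappa constant gene Igkc appeared only in probe sets with several symbols, 5 in all. Probe set 93086_at, assigned to Igkc, the joining segment Igkj1 and 3 variable segments, read 138166 and 174073 in knockout spleen and 332505 and 136867 in wild-type spleen. Its log2 difference was -0.46 (SE 0.56, adjusted p = 0.992), and 0.18 without wild-type replicate 1. The other 4 differed by 0.06 to 0.17, so constant kappa signal was not shown to differ in either direction. With 93583_s_at of Ighm, 100583_at of Igha and 102156_f_at of Igkv6-23, probe set 93086_at was 1 of 4 members above 100000 on every array. In all 4, wild-type replicate 1 was highest and wild-type replicate 2 lowest, a gap of 2.29-fold to 2.73-fold. All 4 measured lower in knockout spleen in the fit of all arrays and higher, by 0.18 to 0.39 on the log2 scale, without wild-type replicate 1. Quantile scaling of all 4 arrays also turned 3 of them, to 0.12 for Igha, 0.07 for Ighm and 0.10 for Igkv6-23, and left 93086_at at -0.10.

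The knockout arrays had a larger median gap between them for these genes than over all tested probe sets. The median gap between the 2 knockout arrays was 0.81 on the log2 scale over the 66 members, against 0.30 over all tested probe sets. Between the wild-type arrays it was 0.66, against 0.64 over all tested probe sets, and the median size of the difference between genotypes was 0.38, against 0.32. Knockout replicate 1 read above knockout replicate 2 in 57 of the 66 (86.4%), where it did so in 50.8% of all tested probe sets. These comparisons with all probe sets are descriptions, since related probe sets on the same arrays are not independent.

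**Figure D3:**
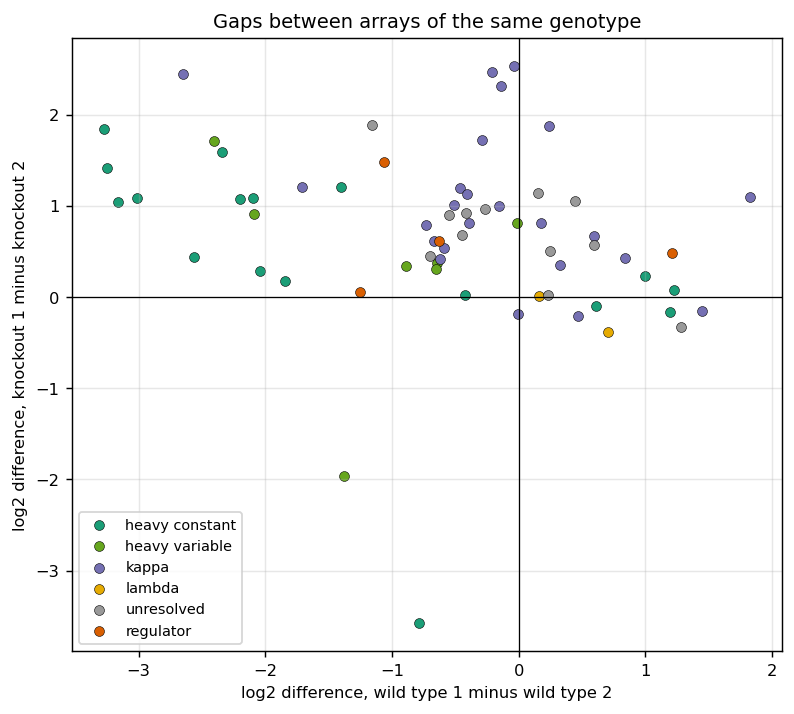
Gap between the wild-type arrays (horizontal axis, log2, replicate 1 minus replicate 2) and between the knockout arrays (vertical axis, likewise) for each of the 66 tested probe sets, coloured by group. Most points lie above the horizontal zero line, as knockout replicate 1 read higher in 57 of 66, and most heavy-chain points lie left of the vertical one.

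The groups did not all follow the same arrays. The median knockout gap was 0.91 in the kappa group, with replicate 1 higher in 21 of 24, and the wild-type gap there was 0.47. In the constant group the wild-type gap was larger, 2.05, with replicate 2 higher in 13 of 17, and the knockout gap was 1.04. Within the constant group the 9 tested probe sets with the f mark had a median knockout gap of 1.09 and the 8 without it 0.17. The 84 probe sets together held 4.12% and 3.12% of the array's summed intensity in knockout replicates 1 and 2 and 3.81% and 3.76% in wild-type replicates 1 and 2, so the genotypes overlapped in total signal.

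**Figure D4:**
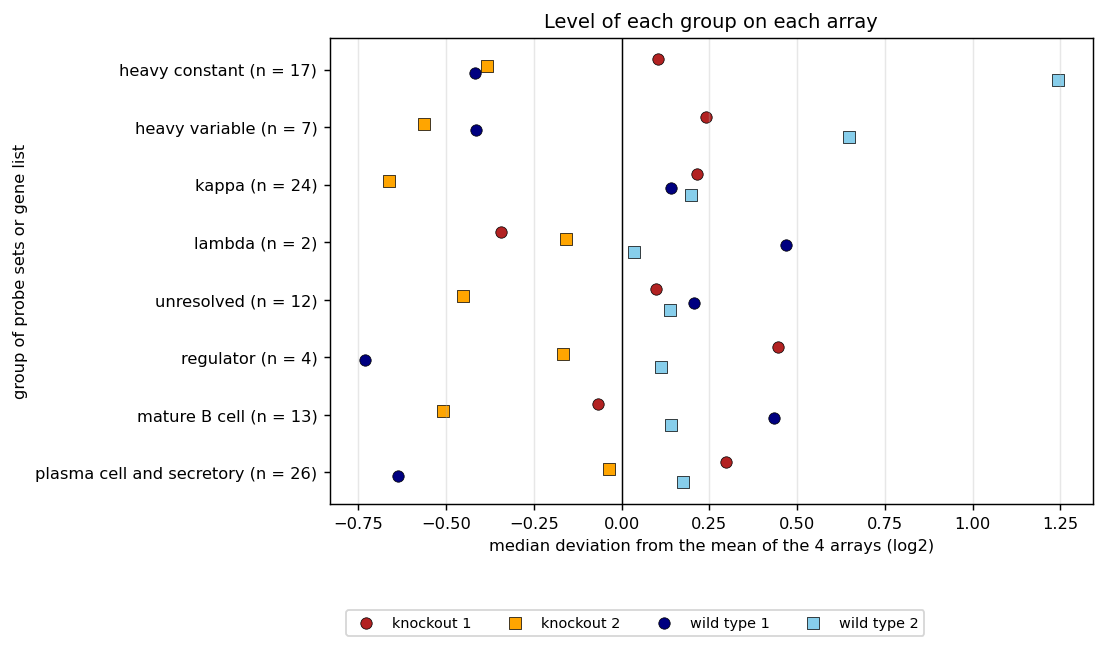
Median log2 deviation of each array from the mean of the 4 arrays (horizontal axis) for the 6 groups of probe sets and 2 gene lists, with knockout in red and orange and wild type in dark and light blue. Knockout replicate 2 is lowest for the kappa and mature B cell rows, and wild-type replicate 1 for the regulators and the plasma cell and secretory genes.

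Genes that mark mature B cells measured lower on balance. Of 13 genes on the array from a list of 16, all were tested. Of these, 3 measured higher and 10 lower, with a median of -0.48, and 0 passed the threshold. An unadjusted p under 0.05 (limma) was reached by 2 of the 13, both lower, against 1.74% of all tested probe sets, 0.966% being lower. The median deviation of the 13 from the mean of the 4 arrays was -0.07 and -0.51 in knockout replicates 1 and 2. In wild-type replicates 1 and 2 it was 0.43 and 0.14, so both knockout arrays lay below both wild-type arrays. It was lowest in knockout replicate 2, as it was for the kappa group, -0.66. Summed intensity of the list was 251281 and 196798 in knockout spleen and 374807 and 231982 in wild-type spleen, so the sums overlapped between genotypes. No listed gene lay below the floor on all arrays. Fcer2a, the IgE receptor CD23, had a log2 difference of -1.51 (SE 0.42, adjusted p = 0.992), and Vpreb3, expressed in B cell precursors and some mature B cells, of -0.99 (SE 0.40, adjusted p = 0.992). Cd72, a coreceptor, read 22817 and 7730 against 6473 and 6567 (1.03, SE 0.55, adjusted p = 0.992), and Cd79b, part of the antigen receptor, differed by -0.74 (SE 0.50, adjusted p = 0.992). The part of these levels in the immunoglobulin values was not tested.

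Plasma cell and secretory-pathway genes, which fold and export antibody, were lowest in wild-type replicate 1, as Jchain was. Of 32 listed genes 27 were on the array and 26 tested, of which 19 measured higher and 7 lower in knockout spleen, with a median of 0.30, and 0 passed. The median deviation of wild-type replicate 1 was -0.64 for the list, beside -0.73 for the regulators and Jchain. Hsp90b1, a chaperone of the endoplasmic reticulum, read 59885 and 45708 against 15182 and 38981 (log2 difference 1.10, SE 0.55, adjusted p = 0.992), and Manf, another protein of that compartment, differed by 0.88 (SE 0.49, adjusted p = 0.992). Creld2 and Edem1, which act in folding and in removal of misfolded protein, differed by 0.73 each. Summed intensity was 245670 and 196670 in knockout spleen and 119986 and 205040 in wild-type spleen, and Ssr4 lay below the floor on all arrays. The part of RNA quality in wild-type replicate 1 was not tested.

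Transcription factors and class-switch enzymes of B cells showed no common direction, with 5 of 9 tested genes higher, a median of 0.04 and 0 passing. Bcl6, the germinal centre factor that opposes Prdm1, read 7045 and 4641 in knockout spleen and 2595 and 5069 in wild-type spleen (log2 difference 0.66, SE 0.48, adjusted p = 0.992). Spib, Pou2f2 and Mef2b, further factors of B cells, differed by -0.42, 0.33 and -0.27. In the list of pre-B genes, which includes Igll1, 3 of 5 measured higher (median 0.18), and 0 passed. Among these were Dntt (0.66, SE 0.44) and Rag1 (-0.94, SE 0.72), which act in segment joining, and the cytokine receptor gene Il7r (0.73, SE 0.60).

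Markers of other cells also differed between arrays, and 0 of their genes passed the threshold. T cell genes measured lower in 9 of 10 (median -0.48), with summed intensities of 55844 and 46970 on the knockout arrays and 107548 and 59258 on the wild-type arrays. Macrophage genes measured higher in 6 of 10 (median 0.14), and their sums, from 134558 to 174962, overlapped between genotypes. Neutrophil genes measured higher in 12 of 12 (median 1.30), while their sums were 536580 and 596827 in the knockout and 716376 and 178617 in the wild type. Erythroid genes measured lower in 6 of 8 (median -0.76), with knockout replicate 1 lowest at a median deviation of -1.55 and a sum of 27685, against 101545 to 114658 on the other arrays. No gene of these 4 lists or of the pancreas list lay below the floor on all arrays. Exocrine pancreas genes, which mark tissue beside the spleen, measured lower in 7 of 8 (median -1.82), with summed intensities of 9921 and 11041 on the knockout arrays and 82613 and 21977 on the wild-type arrays. The part of these shifts in the immunoglobulin values was not tested.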

How the data were processed

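The deposited values are linear 1-colour probe-set intensities, made by the authors with software and scaling not given in the sources used here. No scaling was added. The pooled 25th percentile, 185, served as a floor to which lower values were raised before log2, so folds of dim genes are understated. The 66 control probe sets were left out, and the 7453 of 12422 with a mean log2 above the 40th percentile were tested with limma 3.58.1 in R 4.3.3 (lmFit, eBayes with intensity trend, two-sided, Benjamini-Hochberg, threshold 0.05). The number of arrays limits the precision, and 2 against 2 arrays cannot give an exact permutation p below 0.333.

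Symbols are those of the platform annotation, which can be old. Of the non-control probe sets, 10833 had 1 symbol, 396 several and 1193 none. The members and gene lists were chosen with earlier results of these data known. Named by rule were all tested constant, lambda, regulator and Igkv14-111 probe sets, the 4 brightest and the 4 with the smallest p of each other group, and the 4 list genes with the smallest p. Lists were read on each gene's brightest probe set. Promoters are from RefSeq. Replicate numbers were not taken as pairs: deviations of same-numbered arrays correlated at 0.04 over all tested probe sets and at -0.26 over the 66 tested members. The alternatives were scaling, floor, filter, variance model, array weights, replicate block, array left out and probe sets with any letter mark left out. The fit was tested on simulated data. Tables and plots used Python 3.11.15 and matplotlib 3.10.9.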

Additional observations from a re-analysis of the deposited data

How the results depend on the processing

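No member passed the threshold under any alternative except the replicate number as a block, where 2 did, Igkv14-111 (96974_at) and the Igkv16-104 and Igk probe set. That number is no pairing in the labels, and the block raised the count over all tested probe sets from 4 to 36. That count was 0 without the filter and 2 without cross-hybridising probe sets, where fewer probe sets were tested, and 3 to 13 with 1 array left out, which left 0 members passing each time. With 1 array left out, the lone array is assumed to vary like the others. Median differences then ranged from -1.39 to 0.47 for heavy constant, from -0.86 to 0.51 for heavy variable and from -0.74 to 0.07 for kappa. For lambda, where both tested probe sets are Igll1, they ranged from -0.72 to -0.28. For probe sets with several symbols they ranged from -0.52 to -0.11. The last was -0.69 without letter-marked probe sets, and the cause was not tested. Of 69 family medians under alternatives, 66 moved by less than the spread between replicates. That spread was wide, 0.87 for the constant group, so a median could turn in sign within it. Of 604 values of single named probe sets, 60 moved by more than their standard error, all with an array left out. The variance model, array weights and replicate block could not change a difference here, and the filters could not change that of a single probe set. Both counts therefore include values that could not move. Keeping only probe sets with 1 symbol left 0 members passing. Dim signal limits Iglc1, Sdc1, 7 of the Ighm, 2 of the Ighg3 and 1 of the Igha probe sets.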
